A study of Mus musculus with 6 samples.

Results

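The myeloid, neutrophil and basophil genes described here are 39 transcripts that mark granulocytes, monocytes, macrophages and basophils, measured in preparations of splenic CD8+ T cells. They were taken as a list of gene symbols, and each gene was read from its brightest single-symbol probe set, ranked by mean signal over the 6 arrays. All 39 had such a probe set, among 18193 genes on the array. The mean signal alone chose the probe sets, and the list itself was drawn up with earlier results of these data known, so the counts below are not independent evidence.

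The study used naive CD8+ T cells from spleens of Nrdp1-/- and Nrdp1+/+ (wild-type) mice of strain C57/BL6, on Affymetrix mouse expression arrays. The Rnf41 gene encodes Nrdp1, a ubiquitin ligase. In each genotype 1 array held untreated cells, 1 held cells after 4 h and 1 held cells after 8 h of stimulation through immobilized anti-CD3 (5 µg/ml) and anti-CD28 in solution (1 µg/ml), although one label field names anti-CD28 alone. Signals are given in the order untreated, 4 h and 8 h within a genotype. How the Nrdp1 alleles were made, the age of the mice, the number of mice per RNA and any pooling are not given in the labels. With 1 array per group, no spread between replicates was measured. The p-values rest in part on how far a gene's genotype difference varied over the 3 times, or its time difference over the 2 genotypes. In the additive fit they rest more on the spread of other genes of similar signal (2 residual and 9.46 prior degrees of freedom). Both spreads may be technical. Whether the 3 arrays of a genotype came from separate cell isolations is not given either. A genotype difference therefore cannot be told apart from a difference between isolations, and the p-values do not measure the spread between isolations.

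Granulocytes, monocytes and macrophages arise from common myeloid progenitors. Developing neutrophils fill primary (azurophil) granules with myeloperoxidase and serine proteases, then secondary granules with lactoferrin and cathelicidin, and mature cells carry the S100a8 and S100a9 proteins in the cytosol. Monocytes and macrophages depend on the receptor for colony stimulating factor 1 and carry lysozyme, Fc receptors and phagosome proteins. The splenic red pulp is rich in macrophages that clear erythrocytes, and basophils are rare granulocytes armed with the high-affinity IgE receptor and granule proteases. Most of these products are not made by CD8+ T cells, although some members are also expressed by activated T cells, B cells or natural killer cells.

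The values were MAS5 signals, a linear brightness estimate per probe set, that had been scaled to the same trimmed mean on every array. The median signal of an array lay between 61.5 and 68.6, and a gene below it was called dim on that array. Of the 7 measured T cell markers 6 were at or above the median everywhere, with Cd3d, a subunit of the T cell receptor complex, at 21539.5, 23501 and 19397 in Nrdp1-/- cells, against 23673, 23702 and 23621 in wild-type cells. Cd4, the marker of helper T cells, was dim on all 6 arrays. Although the tissue named in the extraction protocol is colon, 9 of 14 colon markers were dim on all arrays, among them Cdx1, Cdx2, Vil1 and Muc2. The epithelial gene Epcam was not dim, at 241, 185 and 173 in Nrdp1-/- cells, against 529, 406 and 341 in wild-type cells. The quotient of 3' over 5' Gapdh signal was 0.83 to 0.894 in Nrdp1-/- cells and 0.815 to 0.841 in wild-type cells, and the ranges overlapped. The targeted gene was still read in Nrdp1-/- cells: the brightest of 4 Rnf41 probe sets had 528, 437 and 477 in Nrdp1-/- cells, against 728, 505 and 639 in wild-type cells, and one with a wider gap had 54.5, 70.9 and 83.7 in Nrdp1-/- cells, against 181, 166 and 161 in wild-type cells. Which exons the deletion removes is not given, so these probe sets may lie outside it.

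Signal of the members was uneven. Of the 39 genes 17 were at or above the array median on all 6 arrays, 13 on some arrays, and 9 on none. Of all 18193 genes, 9278 were at or above it on all 6 arrays and 11735 on at least 1. The 9 genes that were dim throughout were Camp, Ngp, Ltf, Lcn2, Itgam, C1qa, C1qb, C1qc and Vcam1. More members were at or above the median in Nrdp1-/- cells (29, 29 and 26) than in wild-type cells (24, 24 and 20). The same count per array was not made over all genes, so these numbers have no share to compare with. Some members lay close to the cut-off. Spi1 had 65.1 in untreated wild-type cells, where the median was 65.0, and Elane had 65.5 in Nrdp1-/- cells at 8 h, where it was 68.6. In a bulk preparation, fewer cells of a type and less RNA per cell cannot be told apart.

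Most members that passed the test between genotypes were higher in Nrdp1-/- cells. Over the 3 times, 14 of the 39 were higher and 2 were lower in Nrdp1-/- cells (limma with an additive term for time, adjusted p under 0.05 over all 18193 genes). Over all genes the same test called 1.24% higher and 1.28% lower. The median log2 difference of the 39 members was 0.62, against -0.02 over all genes tested. The 14 were Mpo, Prtn3, Ctsg, Lyz1, Lyz2, Csf1r, Fcer1g, Gpnmb, Ctse, Lpl, Cebpb, Mcpt8, Ms4a2 and Cpa3, and the 2 lower genes were Apoe and Cybb. For 12 members every Nrdp1-/- array lay above every wild-type array, a pattern that 5.35% of all genes had. For 2 members every Nrdp1-/- array lay below, as for 6.56% of all genes. Both the member calls and all other calls depended on modelling variance by intensity: with limma without that trend, 0 of the 18193 genes were called in this or any comparison below, and here 19 of 39 members had an unadjusted p under 0.05.

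**Figure D1:**
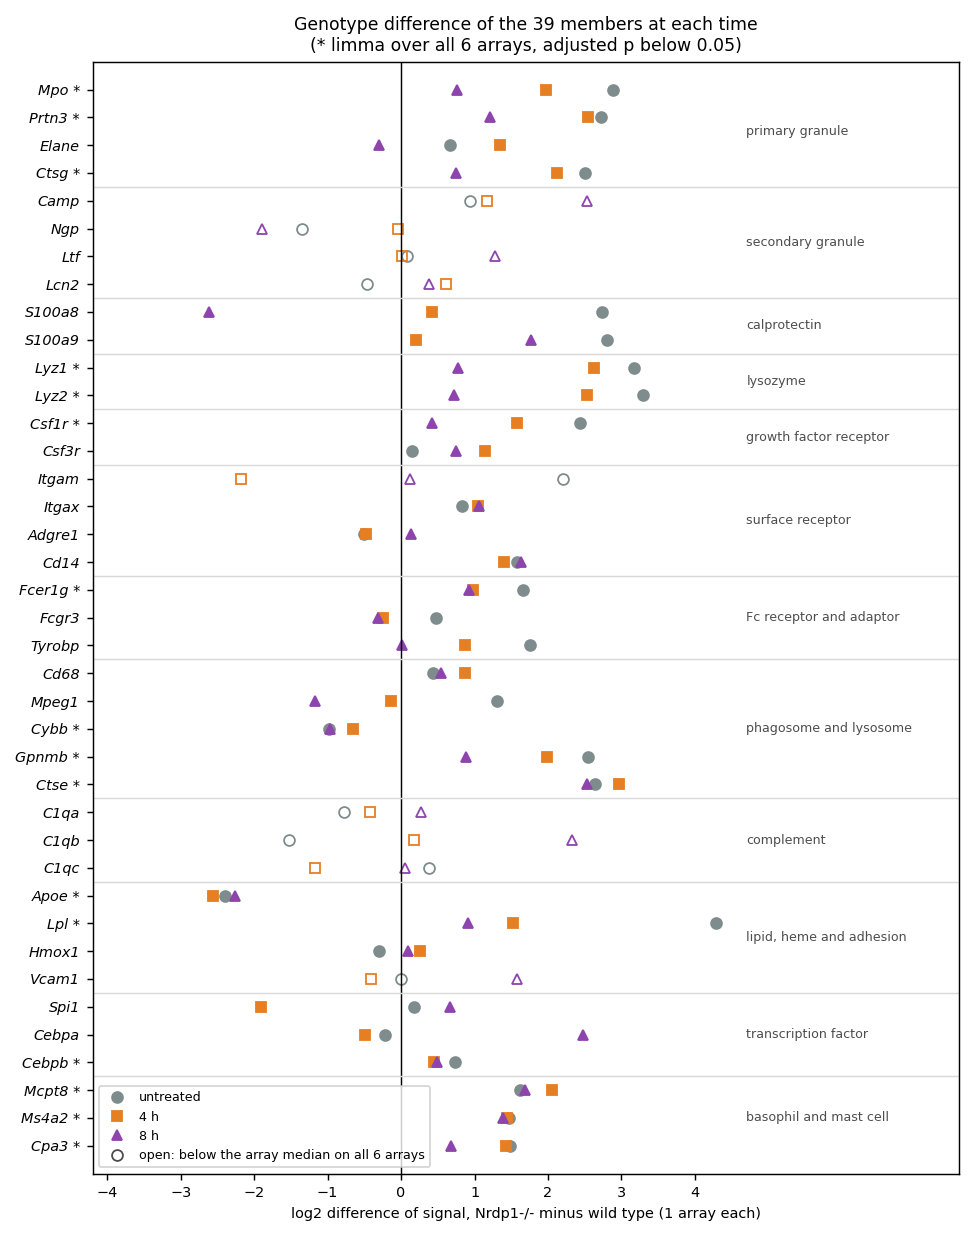
Log2 difference of MAS5 signal, Nrdp1-/- minus wild type, for each of the 39 members (rows, grouped by role) in untreated cells (circles), at 4 h (squares) and at 8 h (triangles), 1 array of each genotype per point. Open symbols are the 9 genes that were dim on all arrays and asterisks mark the 16 genes called by limma over the 6 arrays; the differences of Lyz1 and Lyz2 are smallest at 8 h, while those of Ctse, Apoe, Mcpt8 and Ms4a2 lie close together at the 3 times.

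Of the 4 primary granule genes 3 were higher in Nrdp1-/- cells. Mpo, which encodes myeloperoxidase of azurophil granules, had signals of 1157, 364 and 107 in Nrdp1-/- cells, against 153, 89.5 and 61 in wild-type cells. The untreated Nrdp1-/- array was by far the highest, and the Mpo signal was lower at each later time in both genotypes. It was 7.56-fold higher in untreated Nrdp1-/- cells, 4.07-fold at 4 h and at least 1.64-fold at 8 h, where wild-type cells were dim. The mean log2 difference was 1.87 ± 0.33 (limma, SE, 6 arrays, adjusted p = 0.0103). Prtn3, the protease called proteinase 3, had 771, 291 and 80.1 in Nrdp1-/- cells, against 113, 46.1 and 32.1 in wild-type cells. Every Prtn3 value of Nrdp1-/- cells exceeded the wild-type value of the same time, but the 8 h value in Nrdp1-/- cells was below the untreated wild-type value. The mean difference of Prtn3 was 2.16 ± 0.34 (adjusted p = 0.00453), and at 4 h, where wild-type cells were dim, it was at least 4.37-fold higher in Nrdp1-/- cells.

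Ctsg, which encodes the granule protease cathepsin G, had 641, 471 and 175 in Nrdp1-/- cells, against 109.6, 105 and 102 in wild-type cells. It was nearly level in wild-type cells, and lower at each later time in Nrdp1-/- cells, and the genotypes did not overlap. Its mean difference was 1.79 ± 0.30 (limma, adjusted p = 0.00723). Elane, neutrophil elastase, had 162, 76.8 and 65.5 in Nrdp1-/- cells, against 100.4, 27.4 and 82 in wild-type cells, and its difference of 0.57 ± 0.42 did not pass the threshold (adjusted p = 0.675). Elane lies next to Prtn3 on chromosome 10 with no protein-coding gene between them in the RefSeq annotation.

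The start regions of Mpo, Prtn3 and Ctsg are shown as those of the primary granule genes called higher in Nrdp1-/- cells. The signal of these 3 genes was also lower there at each later time, a course that other called members shared. Each sequence runs 5′ to 3′ along the gene from 250 bases before to 50 bases after the start (RefSeq, GRCm38.p6), and capitals mark GAGGAA or its complement TTCCTC, a core bound by PU.1 and other ETS factors. The regions are chr11:87793534-87793833 on the plus strand, chr10:79879417-79879716 on the plus strand and chr14:56102525-56102824 on the minus strand.
Mpo: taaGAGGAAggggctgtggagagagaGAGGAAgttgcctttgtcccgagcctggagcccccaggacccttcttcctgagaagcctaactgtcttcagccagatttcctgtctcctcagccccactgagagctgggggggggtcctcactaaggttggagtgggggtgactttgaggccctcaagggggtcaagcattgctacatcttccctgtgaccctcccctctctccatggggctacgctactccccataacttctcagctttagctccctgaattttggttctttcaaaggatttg
Prtn3: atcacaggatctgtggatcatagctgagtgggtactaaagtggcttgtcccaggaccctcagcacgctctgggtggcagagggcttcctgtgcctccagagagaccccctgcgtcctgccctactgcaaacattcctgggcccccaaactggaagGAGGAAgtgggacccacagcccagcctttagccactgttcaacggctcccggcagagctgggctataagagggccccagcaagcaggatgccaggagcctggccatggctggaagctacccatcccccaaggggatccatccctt
Ctsg: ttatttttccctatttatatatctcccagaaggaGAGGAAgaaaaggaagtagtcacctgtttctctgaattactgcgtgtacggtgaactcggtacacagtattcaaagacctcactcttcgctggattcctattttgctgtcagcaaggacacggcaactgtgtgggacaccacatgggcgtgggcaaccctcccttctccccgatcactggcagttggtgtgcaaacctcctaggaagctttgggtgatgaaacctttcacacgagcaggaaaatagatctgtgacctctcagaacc
The motif occurred 2 times in the Mpo region and 1 time each in those of Prtn3 and Ctsg, on either strand. Lyz1, Lyz2, Fcer1g and Gpnmb were also called higher and had the same course in Nrdp1-/- cells. Their listed promoters held the motif 0 times. GAGGAA was present in 16 of the 29 members with a listed promoter and in 28.3% of 32851 promoters of the same length. The C/EBP motif TTGCNNAA, also searched on both strands, was found in 0 of the 3 regions shown, in 7 of 29 members and in 10.8% of all promoters. A match describes the letters and not a bound site.

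Genes of later neutrophil stages were not called between genotypes. The secondary granule genes Camp (cathelicidin), Ngp (neutrophilic granule protein), Ltf (lactoferrin) and Lcn2 (lipocalin 2) were dim on all 6 arrays, with signals between 2.60 and 56.5. For Camp every Nrdp1-/- array lay above every wild-type array. Its log2 difference of 1.55 ± 0.61 did not pass (limma, adjusted p = 0.308). The differences of Ngp, Ltf and Lcn2 were -1.09, 0.46 and 0.18. S100a8 and S100a9, the subunits of calprotectin, were above the median in Nrdp1-/- cells when untreated and at 4 h. S100a8 was also just above it in wild-type cells at 4 h. The S100a8 probe set carries the suffix s_at, which marks probes shared among several transcripts. S100a8 had 351, 91.7 and 2.59 in Nrdp1-/- cells, against 49.2, 67.5 and 38.6 in wild-type cells. In untreated cells it was at least 5.4-fold higher in Nrdp1-/- cells, because wild-type cells were dim. S100a9 had 206, 74.5 and 17.5 in Nrdp1-/- cells, against 25.7, 64 and 2 in wild-type cells, and was at least 3.17-fold higher in untreated Nrdp1-/- cells. At 8 h both genes were dim in both genotypes. Over the 3 times neither passed (S100a8 0.18 ± 0.78, adjusted p = 0.97, S100a9 1.59 ± 0.59, adjusted p = 0.276, limma).

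Both lysozyme genes were higher in Nrdp1-/- cells. Lyz2, the lysozyme of myeloid cells, had 2865, 2063 and 748 in Nrdp1-/- cells, against 288, 353 and 452 in wild-type cells. Nrdp1-/- cells lay above wild-type cells on every array, and the ratio between genotypes was 9.93-fold in untreated cells, 5.85-fold at 4 h and 1.66-fold at 8 h. Its mean log2 difference was 2.18 ± 0.33 (limma, adjusted p = 0.00368). Lyz1, the near-identical neighbouring gene, gave 5725, 4154 and 1441 in Nrdp1-/- cells, against 632, 669 and 843 in wild-type cells, with a mean difference of 2.19 ± 0.31 (adjusted p = 0.00238). The 2 genes were parallel on all arrays. The brighter pair of the 3 Lyz1 probe sets carries the suffix x_at, by which the array's maker marks probes that can also match other sequences. The third, without that suffix, was dim on all 6 arrays at 21.8, 8.01 and 32.2 in Nrdp1-/- cells, against 28.4, 46.6 and 3.77 in wild-type cells, so the Lyz1 values may hold signal of Lyz2 and how they are shared is uncertain. With its probe sets averaged the Lyz1 difference was 1.44 and still called.

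Of the growth factor receptors, the monocyte and macrophage receptor differed and the neutrophil receptor did not pass. Csf1r, the receptor for colony stimulating factor 1, had 923, 605 and 177 in Nrdp1-/- cells, against 167, 200.0 and 131 in wild-type cells. It was 5.53-fold higher in untreated Nrdp1-/- cells and 1.35-fold higher at 8 h, with a mean difference of 1.48 ± 0.30 (limma, adjusted p = 0.0217). Averaged over its 3 probe sets Csf1r was no longer called (0.95). Csf3r, the receptor for granulocyte colony stimulating factor, had 104, 75.4 and 85.1 in Nrdp1-/- cells, against 93.5, 31.8 and 49.1 in wild-type cells, and was dim in wild-type cells at 4 h and 8 h. Its difference was 0.67 ± 0.40 (adjusted p = 0.572).

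None of the 4 surface receptors was called between genotypes. Itgax, the integrin chain CD11c, had 147, 189 and 209.7 in Nrdp1-/- cells, against 80.2, 89.1 and 98.2 in wild-type cells. All 3 values in Nrdp1-/- cells were higher than those in wild-type cells, but the difference of 0.98 ± 0.27 did not pass (limma, adjusted p = 0.109). Cd14, the co-receptor for bacterial lipopolysaccharide, had 77.5, 134 and 87.2 in Nrdp1-/- cells, against 23.1, 47.8 and 25.2 in wild-type cells, and was dim on all wild-type arrays, with a difference of 1.54 ± 0.43 (adjusted p = 0.11). Adgre1, which encodes the macrophage antigen F4/80, was at 99.1, 79.6 and 56.7 in Nrdp1-/- cells, against 142, 113 and 51.1 in wild-type cells, and the genotypes overlapped. Itgam, the integrin chain CD11b, was dim on all arrays, with a highest signal of 29.3.

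Fc receptor and adaptor genes were bright in both genotypes. Fcer1g, the signalling chain shared by several Fc receptors, had 579.7, 427 and 266 in Nrdp1-/- cells, against 181, 215 and 138 in wild-type cells. The genotypes did not overlap and the difference was 1.18 ± 0.20 (limma, adjusted p = 0.00673). Tyrobp, the adaptor DAP12, had 808, 505 and 259 in Nrdp1-/- cells, against 236, 274 and 256 in wild-type cells. Nrdp1-/- cells were higher when untreated and at 4 h and almost equal at 8 h, and the mean of 0.88 ± 0.26 did not pass (adjusted p = 0.132). Fcgr3, a low-affinity receptor for IgG, had 554, 269 and 199 in Nrdp1-/- cells, against 398, 322 and 249 in wild-type cells, with a difference of -0.03 ± 0.19 (adjusted p = 0.98). Natural killer cells use all 3 of these molecules. Among 7 other natural killer cell genes 3 were higher in Nrdp1-/- cells (Gzma, Eomes and Nkg7, which effector and memory CD8+ T cells also express), and the summed signal of all 7 was 6556 to 11316 in Nrdp1-/- cells and 4851 to 5569 in wild-type cells. Over all genes 1.24% were called higher. Gzma, Eomes and Nkg7 held most of this sum. The others were not called, with log2 differences of 0.15 for Klre1, 0.02 for Klrb1b, -0.86 for Klra8 and -0.04 for Ncr1. Of these, only Klre1 was at or above the median on all 6 arrays. The natural killer receptor gene Ncr1 was dim on all arrays, and the part of these cells in the result was not tested.

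Genes of phagosomes and lysosomes differed in both directions. Ctse, the aspartic protease cathepsin E, had 7646, 7129.7 and 6019.6 in Nrdp1-/- cells, against 1228, 909 and 1039 in wild-type cells. Here the genotypes stood far apart at every time, at 6.23-fold, 7.84-fold and 5.8-fold, with little change over time. The mean difference was 2.71 ± 0.10 (limma, adjusted p = 4.77e-08). The second Ctse probe set ran the other way, at 190.4, 217 and 191 in Nrdp1-/- cells, against 289.7, 268 and 255 in wild-type cells. Its suffix s_at marks probes shared among several transcripts, so the Ctse difference rests on 1 probe set. Averaged over both, Ctse was still called at 1.14.

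Gpnmb, a glycoprotein of macrophages, had 746, 478 and 88.3 in Nrdp1-/- cells, against 124, 117 and 45.7 in wild-type cells. It was 6.02-fold higher in untreated Nrdp1-/- cells, 4.08-fold at 4 h and at least 1.35-fold at 8 h, where wild-type cells were dim. Its mean log2 difference was 1.81 ± 0.31 (limma, adjusted p = 0.00731), and averaged with its second probe set, which was dim on all arrays, Gpnmb was not called (1.30). Cybb, the catalytic chain of the phagocyte oxidase, was lower in Nrdp1-/- cells at every time, with 508, 915 and 489 in Nrdp1-/- cells, against 1005, 1439 and 965 in wild-type cells. The genotypes did not overlap, and the difference was -0.87 ± 0.11 (adjusted p = 0.000838), or -0.65 and no longer called with its 3 probe sets averaged. Mpeg1, the pore-forming protein perforin 2, had 771, 449 and 252 in Nrdp1-/- cells, against 309, 494 and 573 in wild-type cells. It was higher in Nrdp1-/- cells when untreated and lower at 8 h, so that its mean difference was 0.00 ± 0.33. Cd68, a lysosomal protein of macrophages, had 354, 259.8 and 193 in Nrdp1-/- cells, against 260.2, 139.7 and 132 in wild-type cells, with a difference of 0.62 ± 0.21 (adjusted p = 0.205).

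B cells also express Cybb and Mpeg1, and B cell markers were far lower in Nrdp1-/- cells. Of 11 measured B cell genes, some of which dendritic cells also express, 7 were lower and 0 were higher (limma), with a median log2 difference of -1.93 and a summed signal of 2967 to 3245 in Nrdp1-/- cells against 14134 to 16283 in wild-type cells. Over all genes 1.28% were called lower and 1.24% higher. Ms4a1, which encodes CD20, had 403, 262 and 255 in Nrdp1-/- cells, against 2930.4, 2346 and 2914 in wild-type cells. The part of B cells in the Cybb and Mpeg1 values was not tested.

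Complement genes of resident macrophages were near the floor. C1qa, C1qb and C1qc, which encode the chains of C1q, had signals between 1.67 and 38.2 and were dim on all 6 arrays. Their differences did not pass the threshold. Among genes of lipid and heme handling, Apoe, which encodes apolipoprotein E, had the opposite genotype difference to most members: 254, 184 and 136 in Nrdp1-/- cells, against 1359.7, 1108 and 671 in wild-type cells. It was lower in Nrdp1-/- cells, with a log2 difference of -2.41 ± 0.14 (limma, adjusted p = 1.33e-06) and nearly the same difference at each time (-2.40, -2.56 and -2.26). Lpl, lipoprotein lipase, had 189, 329 and 261 in Nrdp1-/- cells, against 5.46, 112 and 137 in wild-type cells. Only the untreated wild-type array was dim, and there the signal was at least 2.9-fold higher in Nrdp1-/- cells. The mean difference of Lpl was 2.24 ± 0.52 (adjusted p = 0.0472), and it was not called without the untreated Nrdp1-/- array (1.22), with averaged probe sets (1.61), with quantile normalization (2.23) or with a pseudocount of 1 (2.45). Hmox1, heme oxygenase 1, had overlapping signals of 87.7, 161 and 97.2 in Nrdp1-/- cells, against 109, 135 and 91 in wild-type cells. The adhesion molecule gene Vcam1 was dim on all arrays by its brightest probe set. Another of its 3 probe sets just reached the median on 1 array. The third, dim on all arrays, had 39.2, 60.3 and 9.74 in Nrdp1-/- cells, against 2.94, 1.44 and 1.3 in wild-type cells.

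Of the transcription factors, Cebpb was bright and changed with both time and genotype. Cebpb, a C/EBP factor of myeloid cells that is also induced in other activated cells, had 872, 1202 and 1568 in Nrdp1-/- cells, against 524, 879 and 1115 in wild-type cells. It increased over time in both genotypes and was higher in Nrdp1-/- cells at each time. The genotype difference was 0.56 ± 0.10 (limma, adjusted p = 0.0107). Spi1, which encodes PU.1, was dim on 2 arrays, at 74.2, 21.7 and 77 in Nrdp1-/- cells, against 65.1, 93.5 and 46.9 in wild-type cells, and Cebpa, needed for granulocyte development, had 36, 61.7 and 77 in Nrdp1-/- cells, against 42.9, 88.1 and 10.2 in wild-type cells. Neither showed a steady order of the genotypes, and neither passed the threshold (-0.35 ± 0.53 for Spi1 and 0.59 ± 0.61 for Cebpa).

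All 3 basophil and mast cell genes were higher in Nrdp1-/- cells. Mcpt8, the basophil protease mast cell protease 8, had 276, 432 and 338 in Nrdp1-/- cells, against 86.6, 101 and 102 in wild-type cells. Ms4a2, the beta chain of the high-affinity IgE receptor, had 146, 157 and 191 in Nrdp1-/- cells, against 50, 55 and 70.5 in wild-type cells, and was dim in wild-type cells when untreated and at 4 h. Cpa3, carboxypeptidase A3 of basophil and mast cell granules, had 323, 353 and 205 in Nrdp1-/- cells, against 113, 129 and 127 in wild-type cells. For all 3 genes the genotypes did not overlap at any time. The differences were 1.79 ± 0.22 for Mcpt8 (limma, adjusted p = 0.000875), 1.43 ± 0.32 for Ms4a2 (adjusted p = 0.0373) and 1.19 ± 0.24 for Cpa3 (adjusted p = 0.0217). Ms4a2 was no longer called when any 1 of the 6 arrays was left out, with values of 1.41 to 1.45, or with averaged probe sets (0.97), and Cpa3 was not called without the untreated (1.05) or the 4 h (1.08) Nrdp1-/- array. In Nrdp1-/- cells the log2 changes from untreated to 8 h were 0.28, 0.37 and -0.64 for the 3 genes in the same order, between single arrays.

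The start regions of the 3 genes are shown because their levels differed by genotype and stayed within 2-fold over time. Capitals mark GAGGAA or TTCCTC as above and GATAA or its complement TTATC, a core bound by GATA factors. The windows are again 250 bases before to 50 bases after the start (RefSeq, GRCm38.p6), and all 3 lie on the minus strand, at chr14:56085148-56085447, chr19:11623670-11623969 and chr3:20242132-20242431.
Mcpt8: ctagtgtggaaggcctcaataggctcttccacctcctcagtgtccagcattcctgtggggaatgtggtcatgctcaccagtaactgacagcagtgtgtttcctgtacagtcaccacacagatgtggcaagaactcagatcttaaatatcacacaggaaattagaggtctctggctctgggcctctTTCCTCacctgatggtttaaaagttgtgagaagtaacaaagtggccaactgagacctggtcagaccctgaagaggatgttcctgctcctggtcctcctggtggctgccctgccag
Ms4a2: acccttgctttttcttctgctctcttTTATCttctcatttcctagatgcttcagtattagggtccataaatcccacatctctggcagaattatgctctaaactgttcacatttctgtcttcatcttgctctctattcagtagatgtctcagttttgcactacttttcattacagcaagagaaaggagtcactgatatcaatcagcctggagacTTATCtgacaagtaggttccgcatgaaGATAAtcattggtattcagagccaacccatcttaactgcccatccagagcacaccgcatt
Cpa3: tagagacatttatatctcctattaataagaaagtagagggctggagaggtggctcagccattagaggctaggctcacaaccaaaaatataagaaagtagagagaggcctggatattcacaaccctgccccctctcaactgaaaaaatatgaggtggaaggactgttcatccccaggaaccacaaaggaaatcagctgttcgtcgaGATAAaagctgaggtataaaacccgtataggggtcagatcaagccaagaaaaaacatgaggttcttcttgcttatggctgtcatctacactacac
GATAA was found 3 times in the Ms4a2 region, 1 time in that of Cpa3 and 0 times in that of Mcpt8, which held TTCCTC 1 time. It was present in 8 of the 29 members with a listed promoter and in 25.4% of all 32851 promoters. Mcpt8 and Ctsg are neighbours on chromosome 14 with no protein-coding gene between them, and their signals in Nrdp1-/- cells over the 3 times were 641, 471 and 175 for Ctsg and 276, 432 and 338 for Mcpt8.

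**Figure D2:**
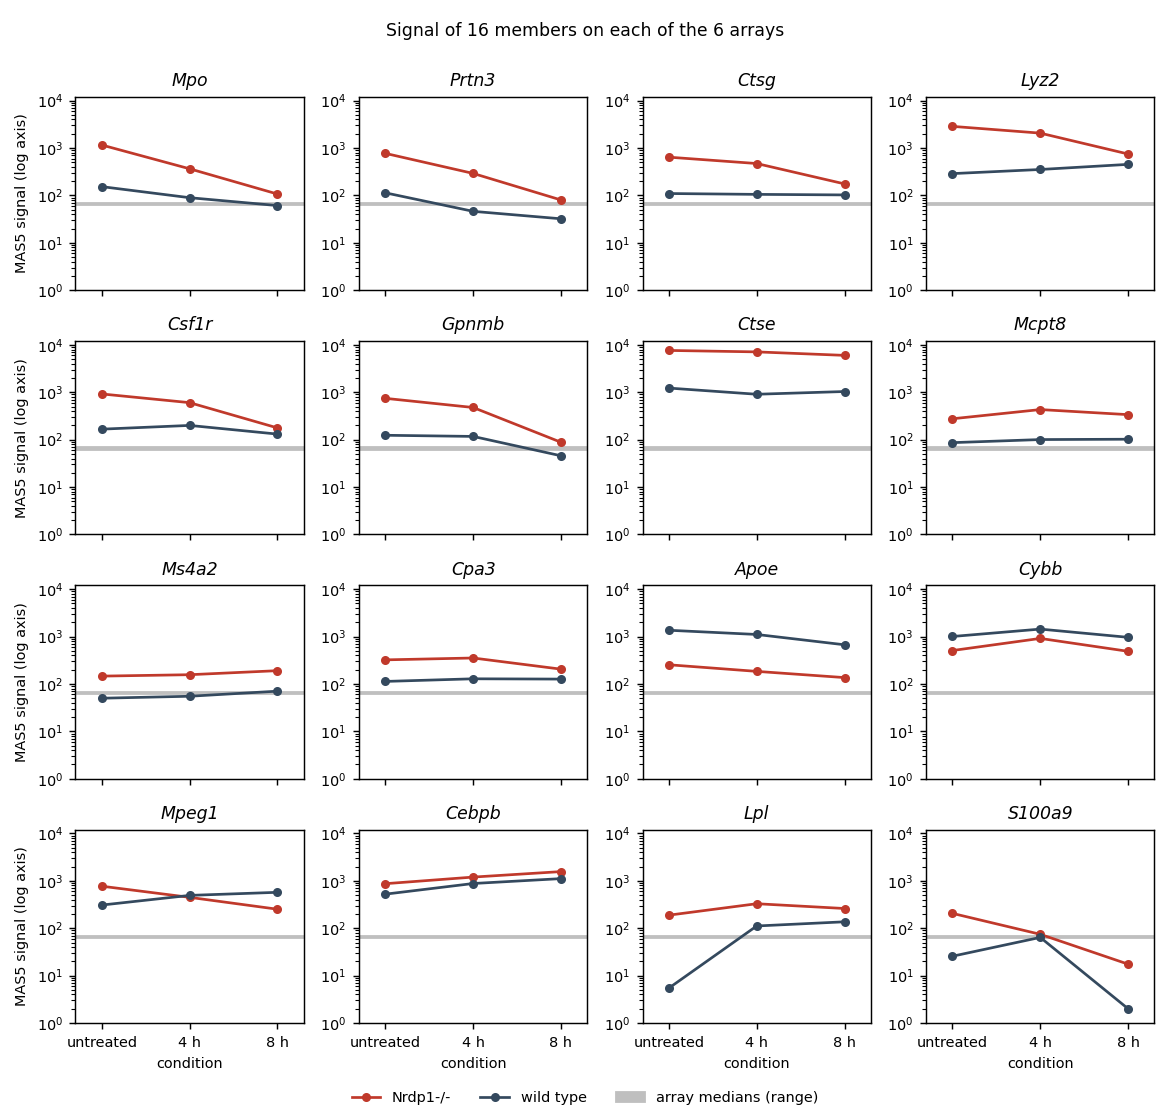
MAS5 signal (log axis) of 16 members in untreated cells and at 4 h and 8 h, with Nrdp1-/- cells in red and wild-type cells in dark grey-blue, 1 array per point; the grey band spans the medians of the 6 arrays (61.5 to 68.6). Mpo, Prtn3, Ctsg, Lyz2, Csf1r and Gpnmb start high and end lower in Nrdp1-/- cells, the genotypes stay apart at every time for Ctse and the basophil genes Mcpt8, Ms4a2 and Cpa3, and Apoe and Cybb are lower in Nrdp1-/- cells.

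The second question was how the members changed on stimulation. At 4 h, averaged over both genotypes, 2 of the 39 rose and 0 fell (limma, adjusted p under 0.05), against 4.16% risen and 2.45% fallen over all genes, and 10 members had an unadjusted p under 0.05. Cebpb rose by 0.60 ± 0.12 and Cybb by 0.68 ± 0.13 (adjusted p = 0.0118 and 0.00896). Mpo (-1.20 ± 0.41) and Prtn3 (-1.31 ± 0.42) did not pass at 4 h. Neither rise was steady: Cybb was not called without the untreated (0.60) or 4 h (0.52) Nrdp1-/- array or with averaged probe sets (0.47), and Cebpb was not called without the untreated (0.47) or 4 h (0.52) wild-type array. Leaving out the untreated wild-type array gave 1 risen and 8 fallen members, leaving out either 8 h array gave 3 and 2, leaving out the untreated Nrdp1-/- array gave 4 and 0, and leaving out the 4 h wild-type array gave 1 and 0.

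At 8 h 8 members had fallen and 1 had risen, against 4.2% fallen and 5.2% risen over all genes (limma). Prtn3 fell by 2.44 on the log2 scale, Mpo by 2.33, Gpnmb by 2.19 and S100a9 by 2.74. Csf1r (-1.34 ± 0.36), Fcgr3 (-1.06 ± 0.23), Apoe (-0.95 ± 0.17) and Cd68 (-0.91 ± 0.25) fell as well, while Cebpb rose by 0.96 ± 0.12. With its probe sets averaged, Gpnmb was not called at 8 h (-0.77). S100a9 was dim in both genotypes at 8 h, so its value depends on the pseudocount, and S100a8 (-2.99 ± 0.95, adjusted p = 0.077) did not pass. Without the untreated Nrdp1-/- array 2 members had risen and 1, Apoe, had fallen. Mpo (-1.57), Prtn3 (-2.02), Gpnmb (-1.63), S100a9 (-1.83), Csf1r (-0.62), Fcgr3 (-0.69) and Cd68 (-1.04) were then not called. Without the 8 h Nrdp1-/- array 2 had risen and 3 had fallen, which were Mpo (-1.49), Gpnmb and Apoe, while Prtn3 (-1.73), S100a9 (-2.87), Csf1r (-0.55), Fcgr3 (-0.85) and Cd68 (-0.85) were not called. Without the untreated wild-type array 1 had risen and 14 had fallen, with Csf1r at -2.06 and Cd68 (-0.77) not called. Without the 8 h wild-type array S100a9 (-2.61) and Cd68 (-0.97) were not called, and Csf1r was at -2.14. The 8 h comparison shares its untreated arrays with the 4 h comparison.

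Single arrays showed the change at 8 h in each genotype. Between single arrays, 15 of 39 members were at least 2-fold lower at 8 h than in untreated Nrdp1-/- cells and 3 were at least 2-fold higher, where 7.65% and 12.6% of all genes were. In wild-type cells 10 members were at least 2-fold lower and 3 at least 2-fold higher, where 9.08% and 10.3% of all genes were. The values of 4 members are given as examples. Lyz2 changed by -1.93 in Nrdp1-/- cells and by 0.64 in wild-type cells, and Tyrobp by -1.62 and 0.11. Csf1r changed by -2.35 in Nrdp1-/- cells and -0.34 in wild-type cells, whereas Apoe changed by -0.88 and -1.01. Differences between 2 single arrays have no replicate check, and some involve dim arrays. In the test of the difference in change given below, Lyz2 was called and Tyrobp (-1.31 ± 0.39, adjusted p = 0.304, limma), Csf1r and Apoe (-0.01 ± 0.35, adjusted p = 1) were not. In Nrdp1-/- cells 19 members had a signal that was lower at both steps, a course that 21% of all genes had, and in wild-type cells 13 members did, against 18.5%. At 4 h 8 members were at least 2-fold lower and 2 at least 2-fold higher than in untreated Nrdp1-/- cells, where 9.61% and 9.53% of all genes were. In wild-type cells the numbers were 3 and 3, against 9.23% and 11.2%.

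Fewer members stood at least 2-fold apart between the genotypes at 8 h than in untreated cells, which was not tested. In untreated cells 19 of 39 members were at least 2-fold higher in Nrdp1-/- cells and 3 at least 2-fold lower, where 8.85% and 9.77% of all genes were. At 4 h the numbers were 17 and 4, against 9.12% and 11.9%. At 8 h they were 12 and 4, against 10.8% and 8.2%. Some of these single differences involve a dim array.

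**Figure D3:**
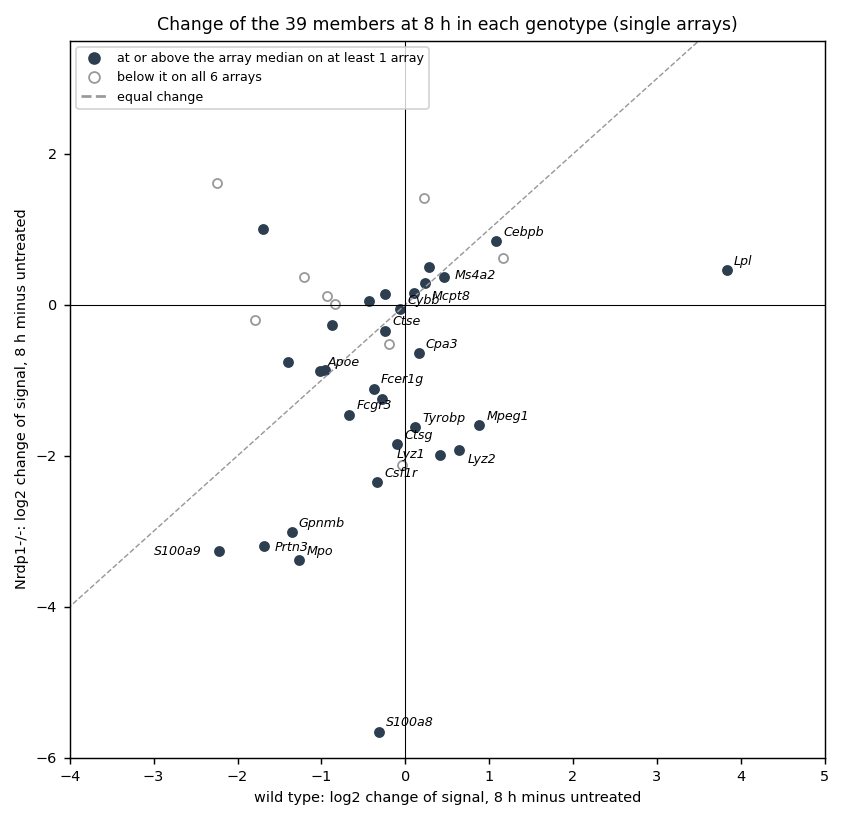
Log2 change of signal from untreated to 8 h for each of the 39 members, in wild-type cells (horizontal axis) and Nrdp1-/- cells (vertical axis), each the difference between 2 single arrays; open points are the 9 genes that were dim throughout and the dashed line marks equal change. Most labelled monocyte and granule genes lie below the line, such as Mpo (-3.38 in Nrdp1-/- cells and -1.27 in wild-type cells), while Apoe, Ctse and the basophil genes Mcpt8 and Ms4a2 lie close to it.

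Whether the change on stimulation differed between genotypes was tested with a genotype-by-stimulation term, 4 h and 8 h pooled. It was more negative in Nrdp1-/- cells for 4 members, Lyz1 (-1.47 ± 0.23), Lyz2 (-1.66 ± 0.27), Mpeg1 (-1.96 ± 0.34) and Lpl (-3.07 ± 0.76), and more positive for 0 (limma, adjusted p under 0.05). Over all genes 0.066% and 0.055% were called in these directions. Mpo (-1.51 ± 0.56, adjusted p = 0.88) and Csf1r (-1.44 ± 0.44, adjusted p = 0.433) did not pass. The test had 1 residual degree of freedom and infinite prior degrees of freedom. Each SE of this test thus came from the intensity trend over all genes and not from the gene's own spread. With the residual spread of the additive model, quantile normalization, averaged probe sets or no intensity trend 0 members were called.

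Other genes of these cell types were read from separate lists that held no members. For every list below, the share over all genes was 1.24% called higher and 1.28% called lower in Nrdp1-/- cells. The lists are short, so each count rests on few genes. Of 19 further neutrophil genes 2 were higher in Nrdp1-/- cells and 0 lower (limma), with a median of 0.09. Both were C-type lectin receptors: Clec4e had 66.8, 713 and 257 in Nrdp1-/- cells, against 24.5, 76.8 and 75.2 in wild-type cells, and Clec4d 354, 505 and 167 in Nrdp1-/- cells, against 95.6, 160.1 and 122 in wild-type cells. Clec4e also rose on stimulation, by 2.41 at 4 h and 1.67 at 8 h. Of the 19 genes 9 reached the array median on at least 1 array, among them Pglyrp1, a peptidoglycan-binding granule protein, on all 6 and Ms4a3, a gene of granulocyte and monocyte progenitors, on 4. Ms4a3 had 208, 91.8 and 119 in Nrdp1-/- cells, against 64.2, 80.7 and 51 in wild-type cells, and was not called. Others were dim on all arrays, such as Cxcr2, Mmp9, Cd177 and Padi4.

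Of 26 macrophage genes 1 was higher and 1 lower in Nrdp1-/- cells, with a median of 0.52. The higher one was Clec7a, which encodes the beta-glucan receptor dectin-1, at 97.4, 381 and 256 in Nrdp1-/- cells, against 19.2, 44.1 and 59.5 in wild-type cells. The lower one was Lgmn, the lysosomal protease legumain, at 130.3, 90.1 and 50.2 in Nrdp1-/- cells, against 259, 285 and 284 in wild-type cells. Of the 26 genes 12 reached the array median on at least 1 array, among them Slc40a1, the iron exporter ferroportin, in untreated Nrdp1-/- cells and the receptor kinase gene Axl on 4 arrays. Dim on all 6 arrays were 14 genes, including Spic, Vsig4, Cd163 and Marco. Of 11 further monocyte genes 2 were higher, Ccr2 with 560.5, 352 and 443 in Nrdp1-/- cells, against 215, 248 and 256 in wild-type cells, and Nr4a1, an immediate early gene that T cells also induce. F13a1, coagulation factor XIII A of monocytes, was the only one of the 11 to fall by 8 h (-1.61 ± 0.43), against 4.2% of all genes.

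Of 13 dendritic cell genes 2 were lower in Nrdp1-/- cells and 0 higher. These were Wdfy4 at 227, 195 and 202 in Nrdp1-/- cells, against 871, 771 and 698 in wild-type cells, and Ccr9, a chemokine receptor that naive T cells also carry. The log2 difference of Wdfy4 was -1.88, near the median of the B cell genes (-1.93), and which cells gave its signal was not tested. Of the 13 genes 10 reached the array median on at least 1 array, while Flt3, Xcr1 and Cd209a were dim on all arrays. Of 17 further basophil, mast cell and eosinophil genes 2 were higher and 0 lower (limma). Prg2, the major basic protein of eosinophil granules, had 580.5, 515 and 117 in Nrdp1-/- cells, against 137, 121 and 73.8 in wild-type cells, and fell by 8 h (-1.56 ± 0.35). Csf2rb2, a chain of cytokine receptors on myeloid cells, had 195, 266 and 253 in Nrdp1-/- cells, against 82.2, 80.4 and 137 in wild-type cells. Of the 17 genes 10 reached the array median on at least 1 array. Kit, the receptor for stem cell factor, did so on all 6 with 323, 404 and 354 in Nrdp1-/- cells, against 326, 376 and 382 in wild-type cells, as did Gata2, a transcription factor of basophils and mast cells, with 260.1, 344 and 301 in Nrdp1-/- cells, against 175, 219 and 197 in wild-type cells, and neither was called. The mast cell protease genes Mcpt4, Tpsb2, Tpsab1 and Cma1 were dim on all arrays, as was Cd200r3. Uncalled genes lay in both directions. Hdc differed by 0.16 ± 0.48 and Fcer1a, above the median on 1 array, by 2.28 ± 0.68. Il5ra had 63.1, 38.6 and 27.4 in Nrdp1-/- cells, against 138, 84.2 and 121 in wild-type cells (-1.37 ± 0.41). The median log2 difference of the 17 genes was 0.45. Of 14 erythroid and platelet genes 1 was higher, Car1, a carbonic anhydrase of erythroid cells, at 164, 135 and 286 in Nrdp1-/- cells, against 36.4, 34.7 and 33.9 in wild-type cells.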

How the data were processed

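The authors deposited a linear signal intensity for each probe set and array, made with MAS5 per the submitters' processing notes (version not given in the sources used here). Judged from the deposited intensities, arrays had been scaled, since their 2% trimmed means were all 500.0. Groups came from the sample titles. The files held no detection calls, so depth is expressed as signal over the array median, and the number of arrays limits the precision.

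Of 45101 probe sets, 64 controls were left out. In the platform annotation 34945 had 1 symbol, 932 several, and 9160 were unlisted, which gave 18193 genes, each read from its brightest single-symbol probe set. All 39 member symbols matched RefSeq by Entrez identifier. Values were taken as log2(signal + 4.45), 4.45 being the 10th percentile, which understates folds of dim genes. The fit used limma 3.58.1 in R 4.3.3 with an intensity trend, on all genes without a filter, so that no member entered through the group in which it is high (2 residual and 9.46 prior degrees of freedom). "At least" folds are against the median of the dim array. The test was tried on simulated data. Members, lists and tests were chosen with earlier results of these data known. All members are accounted for. The rule gave signals for up to 20 members that reached the median, widest range first, and up to 2 called genes per list; the remaining members that reached it, the dim markers and other list genes were named after their values were seen. Alternatives were a filter on dim genes, quantile normalization, median centring, other pseudocounts (1 and the 30th percentile, 24.3), averaged probe sets, no trend and leaving out each array. The 4 stimulated arrays alone were added after seeing the data.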

Additional observations from a re-analysis of the deposited data

Results flagged for a closer look

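Between genotypes, 4 members changed differently on stimulation in the interaction test of limma. The difference of the log2 change, Nrdp1-/- minus wild type, was -1.47 for Lyz1, -1.66 for Lyz2, -1.96 for Mpeg1 and -3.07 for Lpl. In Lyz1, Lyz2 and Mpeg1 the signal was lower in stimulated than in untreated cells in Nrdp1-/- cells and higher in wild-type cells. Lpl was dim in untreated wild-type cells, so its value depends on the pseudocount. The call of all 4 was lost with the residual spread of the additive model.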

How the results depend on the processing

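Between genotypes, 16 members were called, and the count stayed between 11 and 17 under the alternatives with an intensity trend, including 16 with the 4 stimulated arrays alone, an alternative chosen after seeing the data. Leaving out 1 array gave 13 to 16. Of the 16 members, 10 were called in all 13 of these alternatives (Mpo, Prtn3, Ctsg, Lyz1, Lyz2, Fcer1g, Ctse, Apoe, Cebpb and Mcpt8). At 4 h, 2 members were called, with 4 under the filter on dim genes, 1 with averaged probe sets and 1 to 9 without 1 array. At 8 h, 9 were called, and 3 to 15 without 1 array, and only Apoe and Cebpb were called in all 12 alternatives with the trend. Without the trend 0 members were called in any comparison, with 19, 5, 10 and 1 at an unadjusted p under 0.05 between genotypes, at 4 h, at 8 h and in the interaction. The interaction count of 4 went to 0 with quantile normalization, averaged probe sets or the residual spread of the additive model, with 9, 8 and 7 members at an unadjusted p under 0.05. It could not be fitted with an array left out, since no residual degree of freedom remains. For members called in the reported fits, 310 of the recomputed values stayed called in the same direction, 89 were no longer called and 0 changed sign. The cause of the lost calls was not tested. Fits without 1 array, and the fit with the 4 stimulated arrays alone, kept only 1 residual degree of freedom, against 2 in the additive fit of all arrays. They say little about a gene's own spread and rest largely on the spread of other genes. They were thus not a stricter test, and a call that was kept in them is weak evidence that it is robust. Time is a term of the additive fit, so the genotypes were compared within each time. No further pairing, such as by animal, was possible because each group has 1 array and the labels carry no replicate numbers. Dim genes limit what can be said of the 9 members below the array median throughout.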
